A study of Mus musculus with 40 samples.

Results

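Messenger RNA of the dorsal hippocampus was sequenced in 40 mice, 1 library a mouse, and 32 genes of T cells, natural killer (NK) cells and B cells are described here, of 20953 genes in the table. The genes were listed by symbol, and all 32 were found: 5 genes of the T cell receptor and its CD8 coreceptor, 6 of the signalling directly behind that receptor, 8 of adhesion, costimulation and checkpoint receptors, 8 of cytotoxic and effector proteins, and 5 of B cells and plasma cells. They were chosen by function with their RPKM levels across these 6 groups already known, so the levels and fold changes below are a description, and nothing is read from a count of members called. Young wildtype mice were 2-4 months old, and old wildtype and old HDAC3flox/flox mice were 18-20 months old, all C57BL/6J by their labels. Homecage mice (young 6, old wildtype 6, HDAC3flox/flox 8) were taken straight from the home cage, and trained mice (6, 6 and 8) were killed 60 min after 10 min of object location memory (OLM) training, in which a mouse explores a context holding identical objects. In HDAC3flox/flox mice the gene of the histone deacetylase HDAC3 was deleted by an adeno-associated virus carrying Cre under the CaMKII promoter, which is active in excitatory neurons, infused into the dorsal hippocampus 2 weeks earlier. The deletion was therefore directed at neurons of the infused region and not at lymphocytes. By the study's methods, the old wildtype (HDAC3+/+) mice received the same virus, so the old genotypes differ in the floxed gene and share the infusion. By its figure legend all groups held both sexes, with a larger share of females in the HDAC3flox/flox than in the old wildtype groups. The young groups differed in that share from both. The labels give no sex for a library, so sex was not in the fits. The young libraries came from mice of an earlier experiment, for which no infusion is described in the sources used here. The study describes those mice as C57 wildtype, and the old wildtype mice as HDAC3+/+ littermates of the floxed mice. Age, experiment, mouse line and infusion therefore cannot be told apart in a comparison of old with young.

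T cells read peptides on other cells through a receptor whose signal passes inward through the CD3 chains, and the CD8 coreceptor marks the cytotoxic lineage. The kinases LCK and ZAP70 and the scaffold LAT carry that signal on, and costimulatory receptors such as CD28 and ICOS raise it while the checkpoint receptors CTLA4 and PD-1 lower it. Cytotoxic T cells and NK cells kill through perforin and granzymes stored in granules, and B cells signal through CD79A and CD79B before some of them become antibody-secreting plasma cells. Few lymphocytes are found inside the healthy young brain. They are known to be more frequent in the aged brain and at its borders (meninges, choroid plexus and vessels). In bulk tissue such as this, fewer cells of a type and less RNA per cell cannot be told apart.

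Levels are given as RPKM (reads scaled to the length of the gene in kilobases and to the mapped reads of the library), the unit of the deposited table, which allows levels of different genes to be compared. The total reads of a library were not in the files, but the smallest steps of the values gave an estimate of 12804000 to 38610000 mapped reads a library (median 24944000). At these depths 1 read on a transcript of 1 kb equalled 0.0259 to 0.0781 RPKM, so the young levels of many of these genes stood for no more than a few reads. Hdac3 itself was measured at 27.6 to 33.1 RPKM in the old wildtype libraries and at 11.5 to 24.2 RPKM in the HDAC3flox/flox libraries, with no overlap. Markers of hippocampal neurons were high in every library (summed over 8 genes, 1964 to 3385 RPKM). The 6 choroid plexus markers summed to 1577 RPKM or more in 9 of the 40 libraries, spread over 5 of the 6 groups and absent from old wildtype homecage, and to at most 284 RPKM in the other 31. The old wildtype homecage library OWT-HC-110A stood apart from the other old libraries in the lymphocyte genes, and not in these alone. It lay within the range of the 12 young libraries for 23 of the 32 genes and was the lowest of the 28 old libraries for 21. Its summed microglia markers (187 RPKM, young 168 to 196) and monocyte and macrophage markers (2.09 RPKM, young 0.674 to 2.71) were within the young range. Its pan-leukocyte sum (64.0 RPKM) was just above the highest young one (59.5 RPKM). Results that rest on it are given with and without it.

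**Figure D1:**
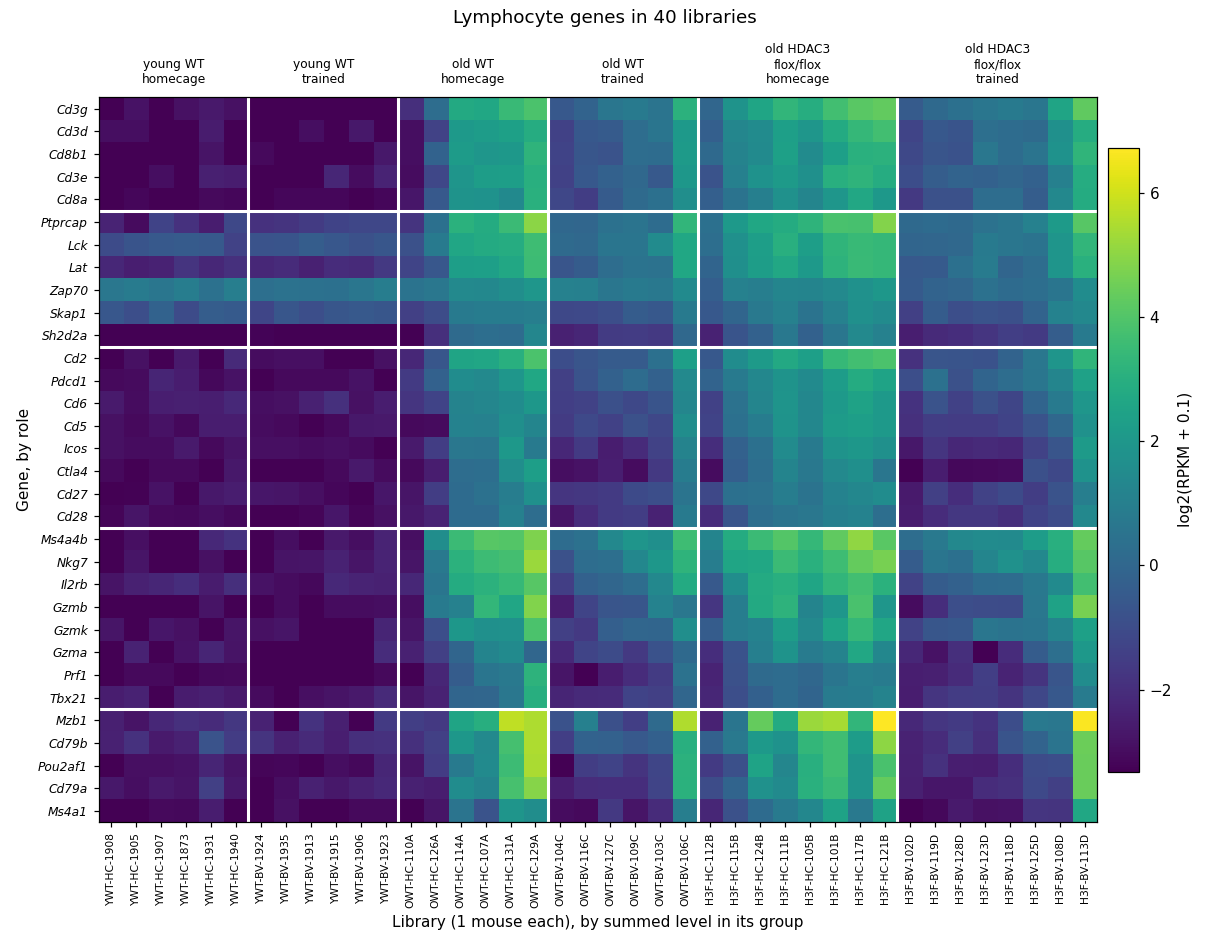
Level of each of the 32 lymphocyte genes (rows, in 5 role groups) in each of the 40 libraries (columns, in 6 groups, ordered by summed level within a group), as log2(RPKM + 0.1). The young columns are near the lowest colour for most genes, Zap70, Skap1 and Lck excepted, and the old columns range from young-like (OWT-HC-110A) to high.

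A promoter sequence (250 bases before to 50 after the start, RefSeq, GRCm38.p6) was at hand for 20 of the 32 genes. The short core bound by ETS factors, AGGAAG on either strand, occurred in 12 of these 20 promoters (60.0%) and in 35.1% of 27025 promoters of all genes. The RUNX core TGTGGT occurred in 6 of 20 (30.0%) and in 16.9% of all promoters. The T-box sequence AGGTGTGA, of the kind bound by the T-bet protein that Tbx21 encodes, occurred in 1 of 20 (5.0%, Nkg7) and in 1.27% of all, and the octamer ATTTGCAT of B cell promoters in 0 of 20 and 1.75%. No motif overlapped another in the sequences printed here. A match is only a run of letters, and no binding was measured. The 250 bases upstream of 4 genes are printed to show such runs. They belong to a kinase that acts behind the T cell receptor, a granule membrane gene, a granzyme gene and a B cell receptor gene. Capitals mark the matches of these motifs on either strand.
Lck (chr4:129573642-129573891, minus strand): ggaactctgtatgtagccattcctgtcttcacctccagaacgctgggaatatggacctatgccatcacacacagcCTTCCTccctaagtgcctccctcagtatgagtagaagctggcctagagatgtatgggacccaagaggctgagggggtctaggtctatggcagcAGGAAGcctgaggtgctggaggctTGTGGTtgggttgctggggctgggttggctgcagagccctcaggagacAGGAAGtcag
Nkg7 (chr7:43436888-43437137, plus strand): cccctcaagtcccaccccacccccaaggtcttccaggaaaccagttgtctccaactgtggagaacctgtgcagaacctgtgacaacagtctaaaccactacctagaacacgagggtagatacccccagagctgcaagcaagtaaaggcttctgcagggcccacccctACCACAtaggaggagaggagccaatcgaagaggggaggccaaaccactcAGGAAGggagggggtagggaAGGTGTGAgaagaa
Gzmb (chr14:56262335-56262584, minus strand): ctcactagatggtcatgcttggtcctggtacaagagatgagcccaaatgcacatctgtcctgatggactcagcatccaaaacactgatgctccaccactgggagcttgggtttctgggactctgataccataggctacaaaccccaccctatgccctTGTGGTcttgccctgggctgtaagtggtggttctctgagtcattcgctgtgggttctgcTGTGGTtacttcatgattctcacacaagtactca
Cd79a (chr7:24897247-24897496, plus strand): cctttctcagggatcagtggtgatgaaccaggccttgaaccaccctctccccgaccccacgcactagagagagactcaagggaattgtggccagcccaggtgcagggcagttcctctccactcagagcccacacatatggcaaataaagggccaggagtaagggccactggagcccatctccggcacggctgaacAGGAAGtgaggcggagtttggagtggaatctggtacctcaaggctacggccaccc

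Summed over the 32 genes, the level in young mice was low and even, and in old mice it was higher and differed widely from mouse to mouse. The lowest, median and highest sums were 3.26, 4.12 and 5.06 RPKM in young homecage mice and 2.86, 3.61 and 5.26 RPKM in young trained mice. In old wildtype mice they were 4.57, 125.8 and 456 RPKM in homecage and 11.6, 23.5 and 179 RPKM after training. In old HDAC3flox/flox mice they were 18.5, 155 and 394 RPKM in homecage and 9.53, 24.6 and 388 RPKM after training. Every old library but OWT-HC-110A (4.57 RPKM) was above every young one, and the homecage and trained libraries of both old genotypes overlapped. The highest sum exceeded the lowest 99.6 times among old wildtype homecage mice, 15.5 times among old wildtype trained mice, 21.2 times among HDAC3flox/flox homecage mice and 40.7 times among HDAC3flox/flox trained mice. A sum over 100 RPKM was reached by 4 of 6 old wildtype and 6 of 8 HDAC3flox/flox homecage libraries, but by only 1 of 6 (OWT-BV-106C, 179 RPKM) and 1 of 8 (H3F-BV-113D, 388 RPKM) trained libraries.

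**Figure D2:**
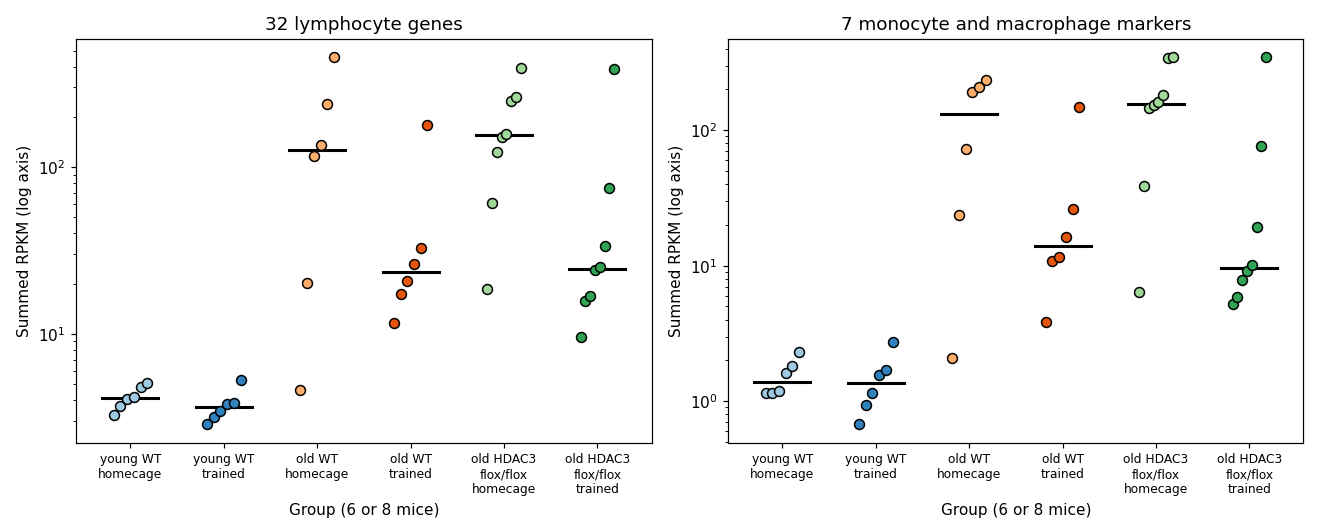
Summed RPKM (log axes) of the 32 lymphocyte genes (left) and of 7 monocyte and macrophage markers (right) in each library (points) by group, with the group median (bars). In the left panel the young groups lie between 2.86 and 5.26 RPKM, and the trained old groups have medians of 23.5 and 24.6 RPKM against 125.8 and 155.3 RPKM in homecage; the right panel has the same order of old homecage above old trained medians.

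The genes of the CD3 chains and of CD8 had the lowest summed young level of the 5 role groups, with a median of 0.0593 RPKM in homecage. Cd3g, Cd3d and Cd3e, which encode chains that carry the receptor's signal, lie side by side on chromosome 9 (mm10; Cd3g at chr9:44969572-44980431, Cd3d at chr9:44981786-44987339 and Cd3e at chr9:44998740-45009627). Cd3g, the highest of them, was measured at 0, 0.0361 and 0.0599 RPKM (lowest, median, highest) in young homecage mice and was listed at 0 in all 6 young trained mice. It reached 0.155, 6.45 and 14.7 RPKM in old wildtype homecage and 0.579, 1.40 and 8.62 RPKM in old wildtype trained mice, and 0.901, 8.63 and 19.9 RPKM and 0.633, 1.44 and 19.3 RPKM in HDAC3flox/flox homecage and trained mice. All 28 old libraries were above all 12 young for Cd3g, while homecage and trained mice overlapped in both old genotypes. Cd3d was measured at 0, 0.0146 and 0.0692 RPKM and 0, 0 and 0.0586 RPKM in young homecage and trained mice. Its old wildtype levels were 0.0297, 4.40 and 7.395 RPKM in homecage and 0.283, 0.865 and 4.18 RPKM after training, and its HDAC3flox/flox levels 0.716, 4.37 and 12.7 RPKM and 0.315, 1.06 and 7.45 RPKM. For Cd3d the library OWT-HC-110A, at 0.0297 RPKM, lay within the young range, and the other 27 old libraries lay above it. Cd8b1, a chain of CD8 encoded at chr6:71322788-71337494 beside Cd8a (chr6:71373427-71379173), was at 0, 0 and 0.0433 RPKM in young homecage and 0, 0 and 0.0582 RPKM in young trained mice. It was at 0.0279, 3.90 and 9.25 RPKM and 0.304, 0.803 and 4.34 RPKM in old wildtype homecage and trained mice, and at 0.981, 3.89 and 8.64 RPKM and 0.350, 1.21 and 9.33 RPKM in the HDAC3flox/flox groups. The old trained medians of Cd8b1 were thus below the old homecage medians and above every young value. Cd3e and Cd8a followed the same order of medians, between 0.689 and 4.20 RPKM for Cd3e and between 0.827 and 2.99 RPKM for Cd8a in the 4 old groups. Of the exon bases of Cd3e, 9.23% are shared with an antisense gene (Gm48719), and the counting is not stated to use strand, so its values are less certain.

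**Figure D3:**
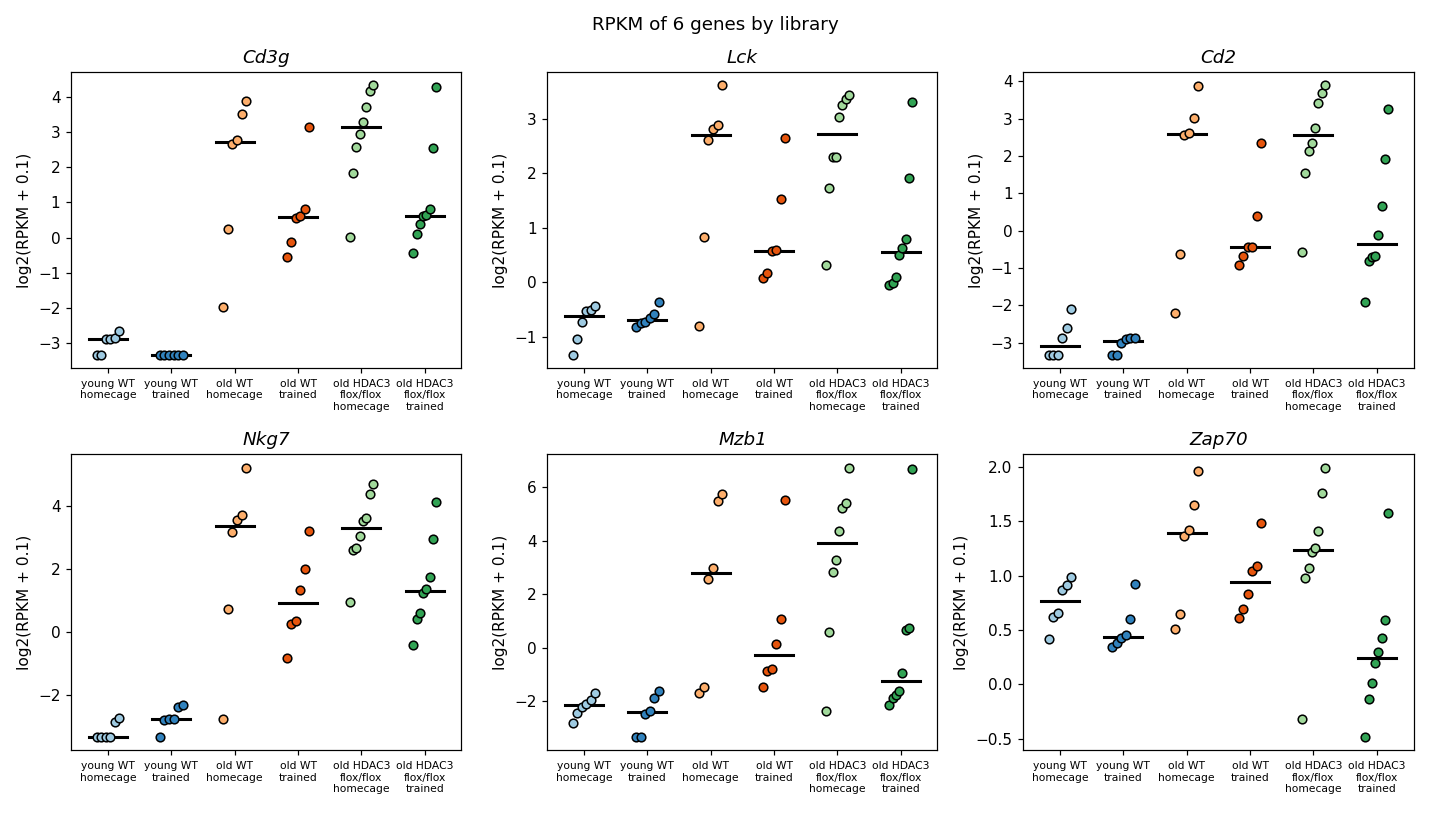
log2(RPKM + 0.1) of 6 lymphocyte genes in every library (points) by group, with the group median (bars). Cd3g, Lck, Cd2, Nkg7 and Mzb1 have higher medians in each of the 4 old groups than in the 2 young groups, with old trained below old homecage. Zap70, shown for contrast and chosen after its values were seen, overlaps between all groups.

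The signalling genes held the members with the highest young levels. The median over the 12 young libraries was 1.43 RPKM for Zap70, 0.547 for Skap1, an adaptor of T cells, and 0.522 for Lck, against less than 0.1 RPKM for 25 of the 32 genes. Ptprcap, a small protein bound to the leukocyte phosphatase CD45, was at 0.0216, 0.133 and 0.355 RPKM in young homecage and 0.168, 0.273 and 0.341 RPKM in young trained mice. Its levels in old wildtype mice were 0.187, 7.83 and 31.4 RPKM in homecage and 0.906, 1.16 and 9.67 RPKM after training, and in HDAC3flox/flox mice 1.22, 8.20 and 28.6 RPKM and 0.971, 1.35 and 17.1 RPKM. Its exons are shared with Rps6kb2 on the other strand (76.0% of the bases) and with Coro1b (26.8%), and the counting is not stated to use strand, so its values are uncertain. Lck, the kinase that first marks the CD3 chains, was at 0.298, 0.552 and 0.638 RPKM in young homecage and 0.464, 0.521 and 0.673 RPKM in young trained mice. It was at 0.469, 6.43 and 12.1 RPKM and 0.961, 1.39 and 6.19 RPKM in old wildtype homecage and trained mice and at 1.14, 6.46 and 10.7 RPKM and 0.870, 1.37 and 9.73 RPKM in HDAC3flox/flox mice. Every old library except OWT-HC-110A (0.469 RPKM) was above the young range for Lck. Lat, the scaffold on which the signal branches, was at 0.0785, 0.118 and 0.184 RPKM and 0.0882, 0.132 and 0.218 RPKM in young homecage and trained mice. Its old wildtype levels were 0.319, 4.89 and 11.8 RPKM in homecage and 0.529, 1.20 and 6.27 RPKM after training, and those in HDAC3flox/flox mice 0.848, 5.59 and 11.2 RPKM and 0.591, 1.16 and 8.26 RPKM. For Lat all 28 old libraries were above all 12 young. Zap70, the kinase recruited to the CD3 chains, overlapped between all 6 groups, with young medians of 1.60 and 1.26 RPKM and old medians between 1.09 and 2.53 RPKM. Of the 27 old libraries other than OWT-HC-110A, 13 were within or below the young range for Zap70, and 12 for Skap1. Sh2d2a, a T cell adaptor and the member of lowest mean level (0.516 RPKM), was listed at 0 in all 6 young homecage libraries and had a median of 1.05 RPKM in old wildtype homecage mice.

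Among the receptors of adhesion, costimulation and checkpoint, Cd2 had the highest level. Cd2, which holds T cells and NK cells to their partners, was at 0, 0.0178 and 0.131 RPKM in young homecage and 0, 0.0287 and 0.0360 RPKM in young trained mice. It was at 0.117, 5.93 and 14.5 RPKM in old wildtype homecage and 0.424, 0.640 and 4.97 RPKM in old wildtype trained mice, and at 0.578, 5.77 and 14.8 RPKM and 0.166, 0.673 and 9.40 RPKM in HDAC3flox/flox mice. Its homecage median exceeded its trained median 9.27 times in old wildtype and 8.57 times in HDAC3flox/flox mice, although the libraries overlapped in both. Pdcd1, the gene of the checkpoint receptor PD-1 that marks activated and long-stimulated T cells, was at 0.0159, 0.0300 and 0.104 RPKM and 0, 0.0194 and 0.0400 RPKM in young homecage and trained mice. Its levels in old wildtype mice were 0.225, 2.70 and 6.28 RPKM in homecage and 0.278, 0.763 and 2.57 RPKM after training, and 0.812, 3.08 and 7.21 RPKM and 0.434, 1.17 and 5.29 RPKM in HDAC3flox/flox mice. For Pdcd1 the 28 old libraries were all above the 12 young. Cd6, an adhesion receptor of T cells neighbouring Cd5 on chromosome 19 (chr19:10789341-10830058), was at 0.0268, 0.0803 and 0.124 RPKM and 0.0291, 0.0576 and 0.161 RPKM in young mice, homecage and trained. It was at 0.195, 2.23 and 3.88 RPKM and 0.266, 0.397 and 2.35 RPKM in old wildtype and at 0.284, 3.00 and 5.38 RPKM and 0.176, 0.482 and 3.76 RPKM in HDAC3flox/flox mice, again with all old libraries above all young. The other 5 (Cd5, Cd27, Cd28, Icos and Ctla4) had medians of 0.00914 to 0.0408 RPKM in young mice, 1.05 to 2.94 RPKM in old homecage mice and 0.0478 to 0.354 RPKM in old trained mice. Ctla4, the other checkpoint receptor, came nearest to the young level after training: its median was 0.0595 RPKM in old wildtype and 0.0478 RPKM in HDAC3flox/flox trained mice, and 8 of the 27 old libraries other than OWT-HC-110A were within the young range.

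Of the cytotoxic and effector genes, Ms4a4b, Nkg7 and Il2rb had the highest levels. Ms4a4b, a membrane protein of mouse T cells and NK cells, was at 0, 0.0161 and 0.179 RPKM in young homecage and 0, 0.0303 and 0.0982 RPKM in young trained mice. In old wildtype mice it was at 0.0314, 13.9 and 27.3 RPKM in homecage and 1.07, 2.78 and 11.97 RPKM after training, and in HDAC3flox/flox mice at 2.21, 13.8 and 33.2 RPKM and 1.09, 2.76 and 20.2 RPKM. The old wildtype homecage libraries ranged from a young-like value (OWT-HC-110A) to the highest, but the old trained libraries did not come within the young range. Nkg7, a protein of cytotoxic granules, was at 0, 0 and 0.04996 RPKM in young homecage and 0, 0.0485 and 0.101 RPKM in young trained mice. It was at 0.0486, 10.2 and 36.8 RPKM and 0.464, 1.77 and 9.06 RPKM in old wildtype homecage and trained mice and at 1.84, 9.73 and 25.4 RPKM and 0.656, 2.37 and 17.3 RPKM in HDAC3flox/flox mice. The old homecage medians of Nkg7 were above the old trained medians, and the ranges overlapped. Il2rb, the receptor chain through which NK cells and memory CD8 T cells sense interleukins, was at 0.0431, 0.101 and 0.153 RPKM and 0.0148, 0.0669 and 0.125 RPKM in young homecage and trained mice. Its levels were 0.117, 7.95 and 17.1 RPKM and 0.260, 0.991 and 6.88 RPKM in the old wildtype groups and 0.599, 7.47 and 12.7 RPKM and 0.297, 1.05 and 12.6 RPKM in the HDAC3flox/flox groups. For Nkg7 and Il2rb, as for Ms4a4b, 27 old libraries were above all 12 young, OWT-HC-110A being the exception. The granzyme genes differed among themselves. Gzmb, a protease that triggers death of the target cell, had old homecage medians of 4.08 and 3.75 RPKM and single values up to 28.3 RPKM (OWT-HC-129A) and 25.2 RPKM (H3F-BV-113D). Gzmk, a granzyme typical of memory T cells, had old homecage medians of 3.22 and 3.68 RPKM, and Gzma of 0.873 and 2.03 RPKM. Gzma and Gzmk are neighbours on chromosome 13 (chr13:113093825-113100981 and chr13:113171608-113225908). Perforin (Prf1), which opens the target membrane, and Tbx21, the transcription factor gene of this cytotoxic programme, had old homecage medians of 0.886 to 1.05 RPKM, and both peaked in OWT-HC-129A, at 8.96 and 7.79 RPKM.

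The B cell and plasma cell genes differed widely between old mice. Mzb1, a chaperone of antibody secretion in plasma cells, on chromosome 18, had the highest mean of all members (12.3 RPKM over the 40 libraries). It was at 0.0448, 0.125 and 0.207 RPKM in young homecage and 0, 0.0883 and 0.227 RPKM in young trained mice. In old wildtype mice it was at 0.215, 6.79 and 53.7 RPKM in homecage and 0.267, 0.739 and 45.5 RPKM after training, and in HDAC3flox/flox mice at 0.0965, 15.03 and 105.7 RPKM and 0.126, 0.324 and 101.4 RPKM. The highest Mzb1 values were in H3F-HC-121B, H3F-BV-113D and OWT-HC-131A, and 6 of the 27 old libraries other than OWT-HC-110A were within the young range. Most of its exon bases (76.9%) are shared with a readthrough model annotated as SPATA24, which limits its certainty. Cd79b, a signalling chain of the B cell receptor, was at 0.0655, 0.131 and 0.498 RPKM and 0.0777, 0.144 and 0.182 RPKM in young homecage and trained mice. Its old wildtype levels were 0.161, 3.20 and 44.7 RPKM in homecage and 0.262, 0.753 and 7.90 RPKM after training, and its HDAC3flox/flox levels 0.773, 4.41 and 32.2 RPKM and 0.0928, 0.398 and 22.2 RPKM. The trained HDAC3flox/flox mice other than H3F-BV-113D were at or below 1.36 RPKM for Cd79b. Pou2af1, a coactivator of antibody gene transcription in B cells, was at 0, 0.0370 and 0.108 RPKM and 0, 0.0149 and 0.112 RPKM in the young groups. It was at 0.0462, 2.21 and 43.2 RPKM and 0, 0.281 and 8.67 RPKM in old wildtype homecage and trained mice and at 0.230, 4.60 and 14.4 RPKM and 0.0750, 0.158 and 21.3 RPKM in HDAC3flox/flox mice. Cd79a, the partner chain of Cd79b, and Ms4a1, which encodes the B cell surface protein CD20, had old homecage medians of 0.925 to 3.41 RPKM and old trained medians of 0.0539 to 0.153 RPKM. The young range of these 2 genes held 11 and 9 of the 27 other old libraries.

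Old wildtype mice had higher levels of the lymphocyte genes than young wildtype mice. In homecage, all 32 fold changes were positive, with a median log2 fold change of 3.64 on the scale of log2(RPKM + 0.1), which understates changes of low genes (3.67 over the 31 genes without Sh2d2a, listed at 0 in the whole young group). The median over all 16340 genes tested was 0.04. With limma, and with a gene called where its p was under 0.05 and its p after Benjamini-Hochberg adjustment over all genes under 0.15, 31 of the 32 (all but Skap1) were called higher, where 30.3% of all genes were called higher. The largest log2 fold changes (± SE) were those of Nkg7 (5.41 ± 1.06), Ms4a4b (5.34 ± 1.09) and Gzmb (4.86 ± 0.998), and the smallest those of Zap70 (0.51 ± 0.23) and Skap1 (0.78 ± 0.43). By role, the medians were 4.11 for the cytotoxic and effector genes, 4.04 for the T cell receptor genes, 3.61 for the B cell genes, 2.90 for adhesion, costimulation and checkpoint and 2.76 for signalling. Without overlap between the 6 old and 6 young homecage libraries were 8 of the 32 genes (8.2% of all genes were higher in old without overlap), and without OWT-HC-110A 25 of 32 (19.5% of all). Leaving out OWT-HC-110A gave a median of 4.26 and 32 calls (33.5% of all genes were called higher), and leaving out OWT-HC-129A, the mouse with the highest sum, a median of 3.01 and 30 calls (28.3% of all).

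After training the same direction was measured at a smaller size. All 32 fold changes of old over young wildtype were positive, with a median of 2.20 (2.18 over the 31 genes without Cd3g, listed at 0 in the young trained group), and 28 were called higher, where 18% of all genes were. Cd79a, Ctla4, Ms4a1 and Skap1 were not called, with log2 fold changes of 1.54 ± 0.78, 1.11 ± 0.57, 1.23 ± 0.57 and 0.20 ± 0.29. Ms4a4b had the largest fold change of the genes with a young value above 0 (4.45 ± 0.47), followed by Nkg7 (3.76 ± 0.54). The T cell receptor genes had a median of 3.16 and the B cell genes of 1.99. The 6 old and 6 young trained libraries did not overlap for 22 of the 32 genes, where 6.81% of all genes were higher in old without overlap. Over all groups, the 28 old libraries lay above the 12 young for 5 genes (Cd3g, Cd8a, Lat, Cd6 and Pdcd1; 1.35% of all genes), and without OWT-HC-110A for 16 genes (3.36% of all). None of those 16 is a B cell gene.

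**Figure D4:**
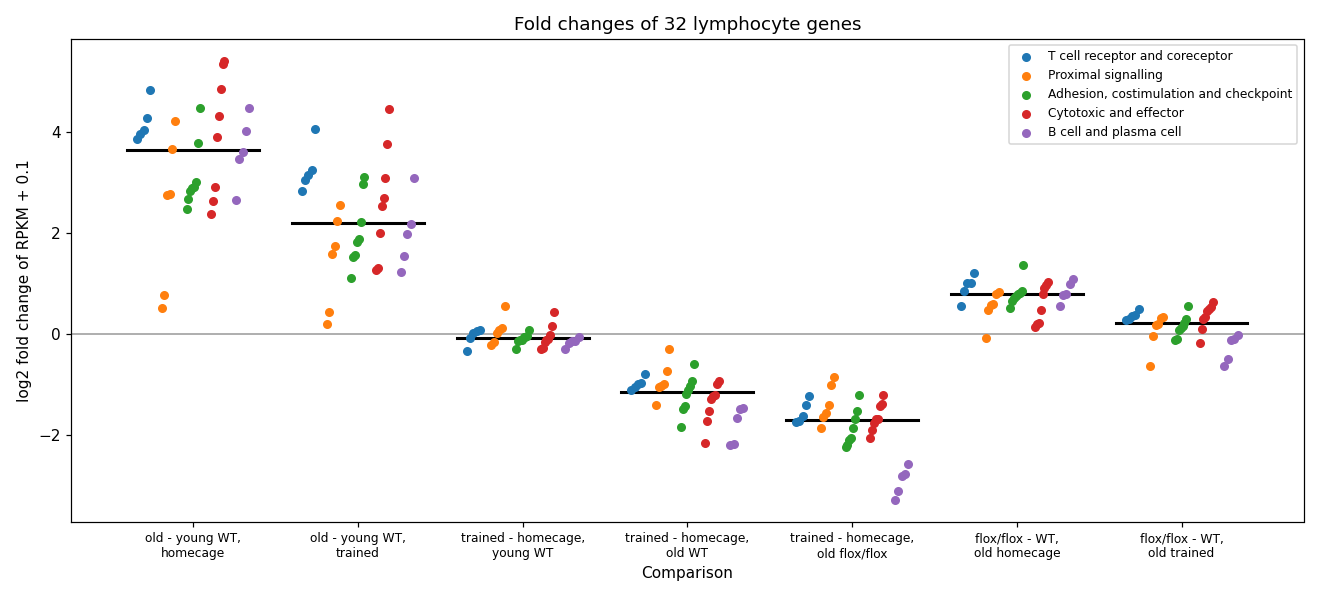
log2 fold change of RPKM + 0.1 for each of the 32 genes (points, coloured by role) in 7 comparisons, with the median over the genes (bars). Medians are 3.64 and 2.20 for old over young wildtype, -0.09, -1.16 and -1.71 for trained over homecage in young wildtype, old wildtype and old HDAC3flox/flox mice, and 0.78 and 0.21 for HDAC3flox/flox over old wildtype; values of Cd3g and Sh2d2a against young groups listed at 0 are fitted and carry no fold.

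Trained old mice had lower medians of the lymphocyte genes than old homecage mice, in both genotypes, with wide overlap. For all 32 genes the trained median was below the homecage median in old wildtype and in HDAC3flox/flox mice, and for none did the homecage libraries all lie above the trained (0.11% of all genes in old wildtype and 0.00612% in HDAC3flox/flox mice). The ratio of the homecage to the trained median was 1.39 (Zap70) to 19.0 (Ctla4) in old wildtype mice, with a median of 5.36 over the genes. In HDAC3flox/flox mice it was 2.08 (Zap70) to 46.4 (Mzb1), with a median of 6.02. In the fit on log2(RPKM + 0.1), the log2 fold change of trained over homecage in old wildtype mice was negative for all 32 genes, with a median of -1.16 (-0.02 over all genes tested). The most negative values in that fit were those of Cd79a (-2.21 ± 1.38), Pou2af1 (-2.17 ± 1.39) and Gzmb (-2.17 ± 1.11). With limma 0 of the 32 genes were called, as were 0% of all genes, and 0 of the 32 had an unadjusted p under 0.05. The model of all 40 libraries and the fit with library weights also called 0. In HDAC3flox/flox mice the median was -1.71, again with all 32 negative, 0 called (0% of all genes) and 31 at an unadjusted p under 0.05, at which 2149 genes in all were lower. The B cell genes had the largest size there (median -2.82, from -2.57 to -3.28), with Mzb1 at -3.28 ± 1.35 and Cd79a at -3.11 ± 0.97, and the T cell receptor genes a median of -1.63.

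Single libraries, and in HDAC3flox/flox mice also the choice of model, decided whether these differences were called. Without OWT-HC-110A, 8 of the 32 genes were called lower after training in old wildtype mice (8.92% of all genes were) and the median was -1.87, and without OWT-HC-129A the median was -0.72 with no call. In HDAC3flox/flox mice 32 genes were called lower without H3F-BV-113D (16.0% of all genes were), 31 without H3F-HC-112B (12.3% of all) and 21 without H3F-BV-108D (7.48% of all). H3F-BV-113D was the highest trained library for all 32 genes, and H3F-HC-112B the lowest homecage library for all 32. A model of all 40 libraries called 30 lower (15.8% of all genes) and one with a weight for each library 32 (29.4% of all), while without the 9 libraries rich in choroid plexus markers 0 were called, as were 0 of all genes, and the median was -2.26.

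In young wildtype mice these levels were low with and without training. The median log2 fold change was -0.09, with 10 positive and 22 negative values and 0 genes called with limma, where 0.49% of all genes were called in either direction, and 2 of the 32 had an unadjusted p under 0.05. A fit with library weights called 1 of the 32 lower (2.89% of all genes), as did the fit without the libraries rich in choroid plexus markers (2.92% of all). The medians of the sum over the genes were 4.12 RPKM in homecage and 3.61 RPKM after training. The difference between the training effects of old and young wildtype mice, tested as an interaction, had a median of -1.13 over the genes, negative for all 32, with 0 called by limma, 0 at an unadjusted p under 0.05 and 0% of all genes called. It rests on the same old wildtype libraries as the training effect itself. Its median was -1.83 without OWT-HC-110A and -0.70 without OWT-HC-129A. Without OWT-HC-110A 14 genes were called lower in it (11.6% of all) and with library weights 27 (15.8% of all).

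No lymphocyte gene was called between HDAC3flox/flox and old wildtype mice with limma. In homecage the log2 fold change of HDAC3flox/flox over old wildtype was positive for 31 of 32 genes, with a median of 0.78 and values from -0.09 (Zap70) to 1.37 (Cd5). None was called, where 0.0857% of all genes were, and 0 had an unadjusted p under 0.05. That median was 0.08 without OWT-HC-110A, 0.41 without OWT-HC-126A and 1.21 without OWT-HC-129A. After training 22 were positive and 10 negative, with a median of 0.21, 0 called (0.22% of all genes) and 1 at an unadjusted p under 0.05, while a fit with library weights called 1 lower (1.33% of all genes). The median was -0.14 without H3F-BV-113D and 0.66 without OWT-BV-106C. All 5 B cell genes were on the negative side, from -0.63 (Mzb1) to -0.02 (Ms4a1), and all 5 T cell receptor genes on the positive side, from 0.27 (Cd3d) to 0.50 (Cd8b1). The difference in training effect between the genotypes had a median of -0.54 over the genes, with 0 called, 0 at an unadjusted p under 0.05 and 0% of all genes called, and a median of 0.10 without OWT-HC-110A and -1.22 without the libraries rich in choroid plexus markers. These comparisons share the old libraries with each other and with the comparisons of old with young and of training.

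The level of the B cell genes beside that of the T cell receptor genes differed between old mice. The ratio of the summed B cell genes to the summed T cell receptor genes was above 2 in 8 of the 28 old libraries (2.08 to 3.48), between 1 and 2 in 2, and at or under 0.7 in the other 18, down to 0.0990. The 8 were OWT-HC-129A, OWT-HC-131A, OWT-BV-106C, H3F-HC-101B, H3F-HC-105B, H3F-HC-121B, H3F-HC-124B and H3F-BV-113D. Their sums of T cell receptor genes were also high, 16.65 to 52.6 RPKM, above the old trained medians of 4.81 and 5.56 RPKM. Mzb1, most of whose exon bases are shared with another gene model, made up much of the B cell sums of these 8 libraries. It was at 105.7 RPKM of 178 in H3F-HC-121B, 101.4 of 172.8 in H3F-BV-113D and 44.7 of 165.5 in OWT-HC-129A. The ratios and the gaps between medians below lean on Mzb1 and were not recomputed without it. H3F-HC-117B and H3F-HC-121B had nearly the same sum of T cell receptor genes, 51.8 and 52.6 RPKM, but B cell sums of 22.9 and 178 RPKM. Cd79a was at 3.54 RPKM in the first and 20.6 RPKM in the second, and Gzmb, in the other order, at 14.2 and 3.75 RPKM. By group, 2 of 6 old wildtype and 4 of 8 HDAC3flox/flox homecage libraries were among the 8, and 1 of 6 and 1 of 8 trained libraries. The gap between the homecage and trained medians was 7.10-fold for the summed B cell genes and 4.70-fold for the summed T cell receptor genes in old wildtype mice, and 28.9-fold and 4.23-fold in HDAC3flox/flox mice.

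**Figure D5:**
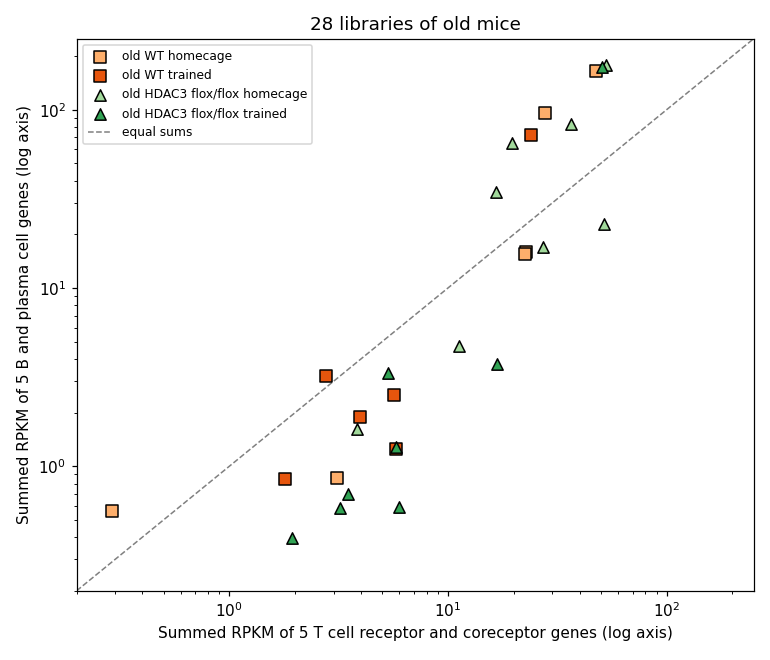
Summed RPKM of the 5 B cell and plasma cell genes against that of the 5 T cell receptor and coreceptor genes in the 28 libraries of old mice (both axes logarithmic), with a line of equal sums. Above the line lie 10 libraries, 8 of them by a ratio of 2.08 to 3.48, and the leftmost point is OWT-HC-110A (0.290 and 0.558 RPKM). The B cell sum includes Mzb1, most of whose exon bases are shared with another gene model.

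Pan-leukocyte and monocyte markers were high in largely the same libraries. The 4 pan-leukocyte genes were Ptprc, Coro1a, Laptm5 and Cd53, all in the table and found in lymphocytes and microglia too. They summed to 56.8, 57.8 and 59.5 RPKM (lowest, median, highest) in young homecage, 64.0, 196 and 413 RPKM in old wildtype homecage and 83.1, 100.9 and 160.0 RPKM in old wildtype trained mice. In HDAC3flox/flox mice they summed to 87.6, 205 and 305 RPKM in homecage and 71.5, 96.0 and 246 RPKM after training. Their medians were thus higher in old homecage than in old trained mice of both genotypes, with overlap. The 7 genes listed for monocytes and macrophages outside the parenchyma, all in the table, summed to 1.15, 1.39 and 2.29 RPKM in young homecage and 0.674, 1.36 and 2.71 RPKM in young trained mice. Their sums were 2.09, 131.4 and 236 RPKM and 3.86, 14.0 and 149 RPKM in old wildtype homecage and trained mice, and 6.41, 157 and 345 RPKM and 5.22, 9.61 and 345 RPKM in HDAC3flox/flox mice. Of the 9 old libraries with the highest lymphocyte sum, 8 were among the 9 with the highest monocyte sum and 7 among the 9 with the highest pan-leukocyte sum. In the same way, 6 were among the 9 with the highest microglia sum and 3 among the 9 with the highest choroid plexus sum. None of these overlaps was tested. Within the monocyte and macrophage list Ccr2, Ly6c2, Plac8 and Ms4a7 had higher medians in old homecage than in old trained mice. The medians of Mrc1, Cd163 and Lyve1, genes of resident border macrophages, were at or under 1.06 RPKM in every group. The 12 microglia markers summed to medians of 192 RPKM in young homecage, 453 RPKM in old wildtype homecage and 340.45 RPKM in old wildtype trained mice, and of 503 and 310.5 RPKM in HDAC3flox/flox homecage and trained mice. The part of these cells in the lymphocyte gene levels, and of lymphocytes in these marker sums, was not tested.

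Markers of red cells, neutrophils and mast cells were low. The 2 red cell markers in the table (Hbb-bs and Alas2, of 5 listed) had medians of 2.07 RPKM in old wildtype homecage and 1.73 RPKM in old wildtype trained mice, against 2.14 RPKM in young homecage mice. Hba-a1, Hba-a2 and Hbb-bt were not in the table, and by the study's methods reads matching several locations were removed. The red cell level is therefore uncertain, and the part of blood was not tested. The 8 neutrophil markers, all in the table, summed to at most 10.3 RPKM in any library, but their sum moved with the homecage and trained groups. Its lowest, median and highest values were 0.152, 1.19 and 2.50 RPKM in old wildtype homecage and 0.149, 0.220 and 1.47 RPKM in old wildtype trained mice, and 0.355, 1.84 and 10.3 RPKM in HDAC3flox/flox homecage and 0.330, 0.669 and 1.86 RPKM in HDAC3flox/flox trained mice. In young mice they were 0.337, 0.437 and 5.13 RPKM in homecage and 0.0151, 0.251 and 0.718 RPKM after training. Each of the 8 had a median of at most 0.545 RPKM in every group, and that of Camp was 0 in all 4 old groups. The part of neutrophils in the lymphocyte gene levels was not tested. The 4 mast cell markers summed to at most 1.51 RPKM in any library. The choroid plexus sum was 7.06 to 14.25 RPKM in old wildtype homecage mice, and 128.9 RPKM in H3F-BV-113D and 284 RPKM in OWT-BV-106C, the trained libraries with the highest lymphocyte sums. In young homecage mice 12 lymphocyte genes were highest in YWT-HC-1931 and 9 in YWT-HC-1940, and in young trained mice 17 were highest in YWT-BV-1923. Each of these libraries was rich in choroid plexus markers, and many of these young levels stood for a few reads. The part of choroid plexus was not tested. The 6 markers of the meninges, all in the table, summed to medians of 20.5 RPKM in old wildtype homecage, 31.7 RPKM in old wildtype trained, 24.98 RPKM in HDAC3flox/flox homecage and 19.1 RPKM in HDAC3flox/flox trained mice. The lymphocyte genes were called higher in old than in young mice at like counts without the 9 libraries rich in choroid plexus markers (30 in homecage, where 28.8% of all genes were, and 27 after training, where 21.4% were, with medians of 3.79 and 2.43).

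A further 58 genes of lymphocytes were listed for comparison, of which 54 were in the table and 53 were tested (Cr2 fell under the minimum level, and Trbc1, Trbc2, Ighm and Igkc were not analysed here). In homecage 50 of the 53 were called higher in old than in young wildtype mice and 1 lower, with a median log2 fold change of 2.51. Of all 16340 genes, 30.3% were called higher there and 2809 lower. After training 41 were called higher and 0 lower, with a median of 1.35, where 18% of all genes were called higher and 1366 lower. In the other 7 comparisons 0 of the 53 were called, where 0% to 0.49% of all genes were. The 1 called lower was Thy1, a surface protein of T cells that is also abundant on neurons, with medians of 358 RPKM in young and 313 RPKM in old wildtype homecage mice. Ccl5, a chemokine of activated T cells and NK cells, had medians of 0.601 RPKM in young homecage, 173 RPKM in old wildtype homecage and 22.5 RPKM in old wildtype trained mice. In HDAC3flox/flox mice its medians were 156 RPKM in homecage and 25.4 RPKM after training. Cd52, a glycoprotein of lymphocytes and other leukocytes, had medians of 2.08, 128.4 and 38.2 RPKM in young homecage, old wildtype homecage and old wildtype trained mice. Jchain, which joins antibodies of plasma cells, had medians of 68.8 RPKM in HDAC3flox/flox homecage and 0.990 RPKM in HDAC3flox/flox trained mice, with 9.89 and 3.67 RPKM in old wildtype. Xbp1, the plasma cell factor that other secretory cells also use, and Bcl11b, which T cells share with neurons, were called higher at small log2 fold changes (0.69 ± 0.19 and 0.23 ± 0.07), with medians of 25.4 and 37.8 RPKM and of 23.5 and 27.7 RPKM in young and old wildtype homecage mice. Cd4, the coreceptor of helper T cells and also found on macrophages, had medians of 0.0728 and 1.95 RPKM in those groups. Foxp3, the factor of regulatory T cells, was at 0.457 RPKM and Ncr1, a receptor of NK cells, at 0.274 RPKM in old wildtype homecage mice.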

How the data were processed

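Dorsal hippocampus was dissected from 40 mice, and poly-A RNA was sequenced as single 50-base reads, 1 library a mouse. Per the labels and the study's methods the authors used CASAVA 1.8.2 and aligned reads to mm10 with ELAND and Bowtie, kept those placed uniquely by both on known exons and junctions, and deposited RPKM per gene, a unit scaled to gene length and library size. Counts were not used here, so no count model was run. Depth, estimated from single-exon genes, was 12804000 to 38610000 reads a library. A second table holds the same values and the authors' own means, SDs, p-values and adjusted p-values, and its comparisons were not used.

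The 16340 of 20953 genes whose mean reached 0.1 RPKM, all 32 members among them, were fitted with limma 3.58.1 (R 4.3.3, trended eBayes) on log2(RPKM + 0.1), using the libraries of the groups compared, and called where p was under 0.05 and its Benjamini-Hochberg adjusted value under 0.15. The fit was run on data simulated for the training comparisons, with independent normal noise for each gene. Such data lack the variation that these 32 genes share between mice, so nothing about their calls is read from that run. The pseudocount was kept low because most members are near 0 in young mice. The members, the role groups and the other lists were chosen with earlier results of these data known. In each role group the 3 genes with the highest mean RPKM are given in full. Of the other lymphocyte genes, the 6 with the highest mean and any called could be named. Alternatives were an adjusted p under 0.05, pseudocounts, minimum levels, scaling, 1 model of all 40 libraries, library weights, leaving out each library, and, added after the data were seen, leaving out 9 libraries with choroid plexus markers at or above 1000 RPKM in sum. No 2 libraries held identical values, and their highest correlation was 0.992. Positions are from GENCODE vM21 (mm10) and promoters from RefSeq (GRCm38.p6). Python 3.11.15, numpy 2.4.6, pandas 2.3.3 and matplotlib 3.10.9 were used for tables and figures.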

Additional observations from a re-analysis of the deposited data

Results flagged for a closer look

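Of 96 groups of libraries examined for a single library far from the rest (15 named genes and the mean over the 32, in 6 groups, on the log2(RPKM + 0.1) scale), 13 held one. Chance flags about 1 in 20 groups where values are normally distributed, a rate that does not apply to groups with many values at 0. The library OWT-BV-106C stood far above the other old wildtype trained mice in 8 of the 13, which are not independent of each other: Cd6 (2.35 RPKM), Mzb1 (45.5 RPKM), Cd79b (7.90 RPKM), Pou2af1 (8.67 RPKM), Ptprcap (9.67 RPKM), Lat (6.27 RPKM), Cd3g (8.62 RPKM) and the mean of log2(RPKM + 0.1) over the 32 genes (1.88). H3F-BV-113D stood far above the other trained HDAC3flox/flox mice for Mzb1 (101.4 RPKM), Cd79b (22.2 RPKM) and Pou2af1 (21.3 RPKM). In young mice, Pou2af1 was at 0.112 RPKM in YWT-BV-1923 and Cd8b1 at 0.0433 RPKM in YWT-HC-1931, both at the level of a few reads and both in libraries rich in choroid plexus markers. Cd8b1 was listed at 0 in the other young homecage libraries, so its flag rests on that value alone.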

How the results depend on the processing

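No paired analysis was possible because no replicate number is shared between groups. The direction of the median was kept for old against young and for training in old mice under every alternative. In the comparison of old with young, age, experiment, mouse line and infusion cannot be told apart, and its size depended on the pseudocount. The homecage median of 3.64 was 1.78 with a pseudocount of 1, and the median after training of 2.20 was 1.18 with 0.5 (also with a minimum of 0.5) and 0.79 with 1. The pseudocount by construction shrinks differences of genes near 0. Training in HDAC3flox/flox mice gave 0 calls in the design as planned, 30 in the model of all 40 libraries and 32 with library weights. With library weights 27 genes were called lower in the interaction of training with old against young, 1 in deletion after training and 1 in training of young mice. Leaving out the libraries rich in choroid plexus markers also gave 1 in training of young mice. Leaving out 1 library at a time gave 0 to 8 calls for training in old wildtype mice (8 without OWT-HC-110A) and 0 to 32 in HDAC3flox/flox mice. For the interaction with old against young it gave 0 to 14 (14 without OWT-HC-110A). In the fits that gave these calls the share of all genes called also rose, as given above beside the same counts. Nothing about the lymphocyte genes is read from the counts. Over the fits that left out 1 library, the median difference between genotypes ran from 0.08 to 1.21 in homecage and from -0.14 to 0.66 after training. That of their training effects ran from -0.95 to 0.10. Without the libraries rich in choroid plexus markers those medians were 1.27, 0.00 and -1.22, and over the other alternatives the lowest median after training was -0.14. The cause was not tested. Of 3510 recomputed values of the 15 named genes, 3425 kept their direction and 0 calls were reversed. Young levels of most members stand for a few reads, so depth limits every fold against young mice.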
